A study of Mus musculus with 2 samples.

Results

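The 9 genes described here encode small proteins of the S100 family (S100a6, S100a10 and S100a11), annexins (Anxa1, Anxa2 and Anxa5), the intermediate filament protein vimentin (Vim), the secreted lectin galectin-1 (Lgals1) and the actin-monomer-binding peptide thymosin beta-10 (Tmsb10). They were chosen by symbol and form 9 of the 31057 rows of each count table. All were present in both tables, and their levels were described across endothelial zones, vessel types and other cell types of the mouse liver.

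S100 proteins are small dimers, and most, though not S100a10, change shape on binding calcium and then dock on partner proteins. Annexins bind acidic phospholipids of membranes in a calcium-dependent way, and Anxa2 forms a complex with S100a10 under the plasma membrane that anchors membrane to actin and takes part in plasmin generation. Vimentin is the main intermediate filament of endothelial and mesenchymal cells. Liver sinusoidal endothelial cells (LSECs) are the fenestrated lining of the liver capillaries, and they differ along the lobule from the periportal side, where blood enters, to the pericentral side, where it leaves.

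Single-cell RNA libraries were made from liver endothelial cells of C57BL/6 mice aged 16 weeks, 1 library from control livers and 1 from livers with cirrhosis caused by 12 weeks of breathing vaporized carbon tetrachloride (CCl4). Both groups carried the genotype Cdh5-Cre+, mTmG +/+, in which a recombinase under an endothelial cadherin promoter switches a membrane reporter from tdTomato to GFP. Cells were collagenase-perfused, freed of most hepatocytes by spinning, stained for dead cells, sorted for live GFP-positive events and pooled from 3 mice per group. By its title the study asked how transcripts of LSECs change in the zones of the cirrhotic liver. Because each group is 1 pooled library, no value below has a replicate check, no test was made, and every interval is a 95% interval for counting error only. Effects of cirrhosis and of the single library cannot be told apart.

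The control library held 5642 barcodes and 45767322 UMIs (counted RNA molecules), and the cirrhosis library held 8327 barcodes and 77339928 UMIs. After filters 4953 and 7191 barcodes were retained, and 17 barcodes occurred in both libraries. LSEC-like cells made up 2868 control and 2963 cirrhosis cells, with median depths of 6952 and 9904 UMIs. In these cells the 10 endothelial markers summed to 14360 and 11263 CPM (a gene's UMIs as a share of all UMIs of the class, scaled to a common total), and the 12 LSEC markers to 25973 and 16412 CPM. Not all sorted barcodes were endothelial: hepatocyte-like cells made up 8.26% of retained barcodes in control and 16.9% in cirrhosis. Immediate-early transcripts, which climb during tissue dissociation as well as in living tissue, took 1.74% of LSEC-like counts in control and 0.487% in cirrhosis.

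All 9 genes are protein-coding, and their positions are given on GRCm38 from GENCODE M21. The S100 genes lie on 1 chromosome: S100a6 at chr3:90612882-90624181, S100a11 at chr3:93520488-93526287 and S100a10 at chr3:93555080-93564643, all on the plus strand, with a gap of 28792 bases between S100a11 and S100a10. Anxa5 is on the same chromosome at chr3:36448923-36475894, on the minus strand. The other annexins are Anxa1 at chr19:20373428-20390944, on the minus strand, and Anxa2 at chr9:69453620-69491795, on the plus strand. Vim lies at chr2:13573927-13582826 and Lgals1 at chr15:78926725-78930465, both on the plus strand, and Tmsb10 at chr6:72957347-72958748 on the minus strand.

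Promoter windows from the RefSeq table (GRCm38.p6), 250 bases before to 50 bases after an annotated start, existed for 7 of the 9 members, in 9 windows since Tmsb10 has 3 starts. They are shown for S100a11 and Anxa2, the members with an AP-1 match, for Vim, the member with the largest pericentral ratio, and for Anxa5, the member that changed least. Each is written 5′ to 3′ on the gene's strand, and capitals mark every match to a searched motif: TGACTCA (AP-1), CATTCC (TEAD), GGGCGG (Sp1) and the SRF CArG box, on both strands.
S100a11: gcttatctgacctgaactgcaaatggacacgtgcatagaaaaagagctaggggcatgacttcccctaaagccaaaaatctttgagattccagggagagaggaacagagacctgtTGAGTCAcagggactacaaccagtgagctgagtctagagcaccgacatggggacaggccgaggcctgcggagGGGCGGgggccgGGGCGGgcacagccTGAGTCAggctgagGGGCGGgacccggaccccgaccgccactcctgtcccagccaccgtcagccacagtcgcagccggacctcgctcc
Anxa2: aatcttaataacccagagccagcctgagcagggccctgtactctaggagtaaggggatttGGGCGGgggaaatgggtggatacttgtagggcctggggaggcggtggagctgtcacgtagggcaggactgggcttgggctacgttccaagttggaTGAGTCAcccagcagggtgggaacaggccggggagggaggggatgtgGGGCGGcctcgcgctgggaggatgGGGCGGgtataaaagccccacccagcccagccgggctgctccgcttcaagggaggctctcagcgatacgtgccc
Vim: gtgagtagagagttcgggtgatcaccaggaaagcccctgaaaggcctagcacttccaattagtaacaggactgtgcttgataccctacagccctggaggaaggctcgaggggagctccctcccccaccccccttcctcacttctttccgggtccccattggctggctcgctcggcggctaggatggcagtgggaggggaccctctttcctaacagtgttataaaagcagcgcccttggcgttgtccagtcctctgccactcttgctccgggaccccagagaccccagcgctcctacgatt
Anxa5: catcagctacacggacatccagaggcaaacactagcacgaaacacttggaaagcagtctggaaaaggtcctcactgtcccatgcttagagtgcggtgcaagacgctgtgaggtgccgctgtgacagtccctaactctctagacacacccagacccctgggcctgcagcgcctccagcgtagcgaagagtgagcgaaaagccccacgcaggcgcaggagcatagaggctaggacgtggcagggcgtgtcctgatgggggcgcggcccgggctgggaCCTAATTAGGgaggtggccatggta
These windows are S100a11 chr3:93520246-93520545 (plus), Anxa2 chr9:69453433-69453732 (plus), Vim chr2:13574061-13574360 (plus) and Anxa5 chr3:36475838-36476137 (minus).

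An AP-1 match was found in 2 of the 7 members with a window. By window it was 2 of 9, against 5.20% of all 32851 promoters of the same length. S100a11 held it 136 and 38 bases before the start and Anxa2 held it 95 bases before. The Sp1 match was found in 3 members (S100a11, Anxa2 and Tmsb10) and in 5 of the 9 windows, against 35.7% of all promoters. A TEAD match was found in Anxa1 alone, 1 of 9 windows, against 14.7%. The CArG box was found in Anxa5 alone, 1 of 9 windows, against 1.63%. Vim and S100a6 held no match of these 4 motifs in their windows, and S100a10 and Lgals1 had no window. A match is a description of the letters only.

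In LSEC-like cells most of the members were higher in the cirrhosis library. Vimentin, galectin-1, thymosin beta-10, Anxa1 and Anxa2 were past 2-fold, S100a11 and S100a10 were higher by less, and Anxa5 was nearly level. Thus 5 of the 8 members at a mean of 20 CPM or more were at least 2-fold higher, where 1.82% of 6886 genes were. With doublets kept, 3 were (Lgals1, Vim and Tmsb10), and the share of all genes at that setting is not given. The members' median log2 ratio was 1.05, and that of all genes was -0.03.

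Galectin-1, a carbohydrate-binding protein that cross-links cell surface glycoproteins, had the largest ratio of the tested members. It stood at 123 CPM in control and 542 CPM in cirrhosis, a log2 ratio of 2.15 (2.09 to 2.21) or 4.43-fold. After thinning every cell to 3000 UMIs, 23.8% of control and 62.9% of cirrhosis LSEC-like cells had a Lgals1 UMI. In B cell-like cells, used as a low reference, the shares were 9.09% of 44 control cells and 13.2% of 114 cirrhosis cells, with median depths of 4325 and 3972 UMIs before thinning. The unthinned LSEC-like shares were 37.9% and 79.5%.

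Vim stood at 269 CPM in control and 663 CPM in cirrhosis, a log2 ratio of 1.30 (1.26 to 1.34). Thinned shares of cells with a Vim UMI were 50.1% and 73.6%, and unthinned shares were 71.0% and 90.2%. In hepatocyte-like cells, whose median depths were 1583 and 1931 UMIs, the thinned shares were 21.4% and 17.6%. Tmsb10 stood at 121 CPM in control and 294 CPM in cirrhosis, a log2 ratio of 1.28 (1.21 to 1.34), with thinned shares of 26.9% and 46.8%.

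Among the annexins, Anxa2, which links membranes to actin, stood at 164 and 341 CPM in control and cirrhosis, a log2 ratio of 1.05 (0.9997 to 1.110). Anxa1, a protein known for limiting neutrophil recruitment, stood at 50.5 and 104 CPM, a log2 ratio of 1.04 (0.94 to 1.14). Anxa5, which binds exposed phosphatidylserine, stood at 575 and 636 CPM, a log2 ratio of 0.15 (0.11 to 0.18). Anxa1 and Anxa2 thus sat just past 2-fold, while Anxa5 was at the 73.9th percentile of all genes tested.

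Of the S100 genes, S100a11, which binds Anxa1, stood at 59.4 and 103 CPM, a log2 ratio of 0.80 (0.70 to 0.89). S100a10, the partner of Anxa2, stood at 259 and 367 CPM, a log2 ratio of 0.50 (0.46 to 0.55). S100a6 stood at 2.49 and 8.10 CPM, below the minimum, and after thinning 0.754% of control and 1.61% of cirrhosis LSEC-like cells had a UMI of it. Its log2 ratio was 1.70 (1.27 to 2.15), from 54 control and 242 cirrhosis UMIs. In B cell-like cells the thinned S100a6 shares were 4.55% and 6.14%. Of the 15 control S100a6 UMIs in that class 13 came from 1 cell, so it gives no measure of background. Being below the minimum, S100a6 in LSEC-like cells is not counted as expressed or changed.

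**Figure D1:**
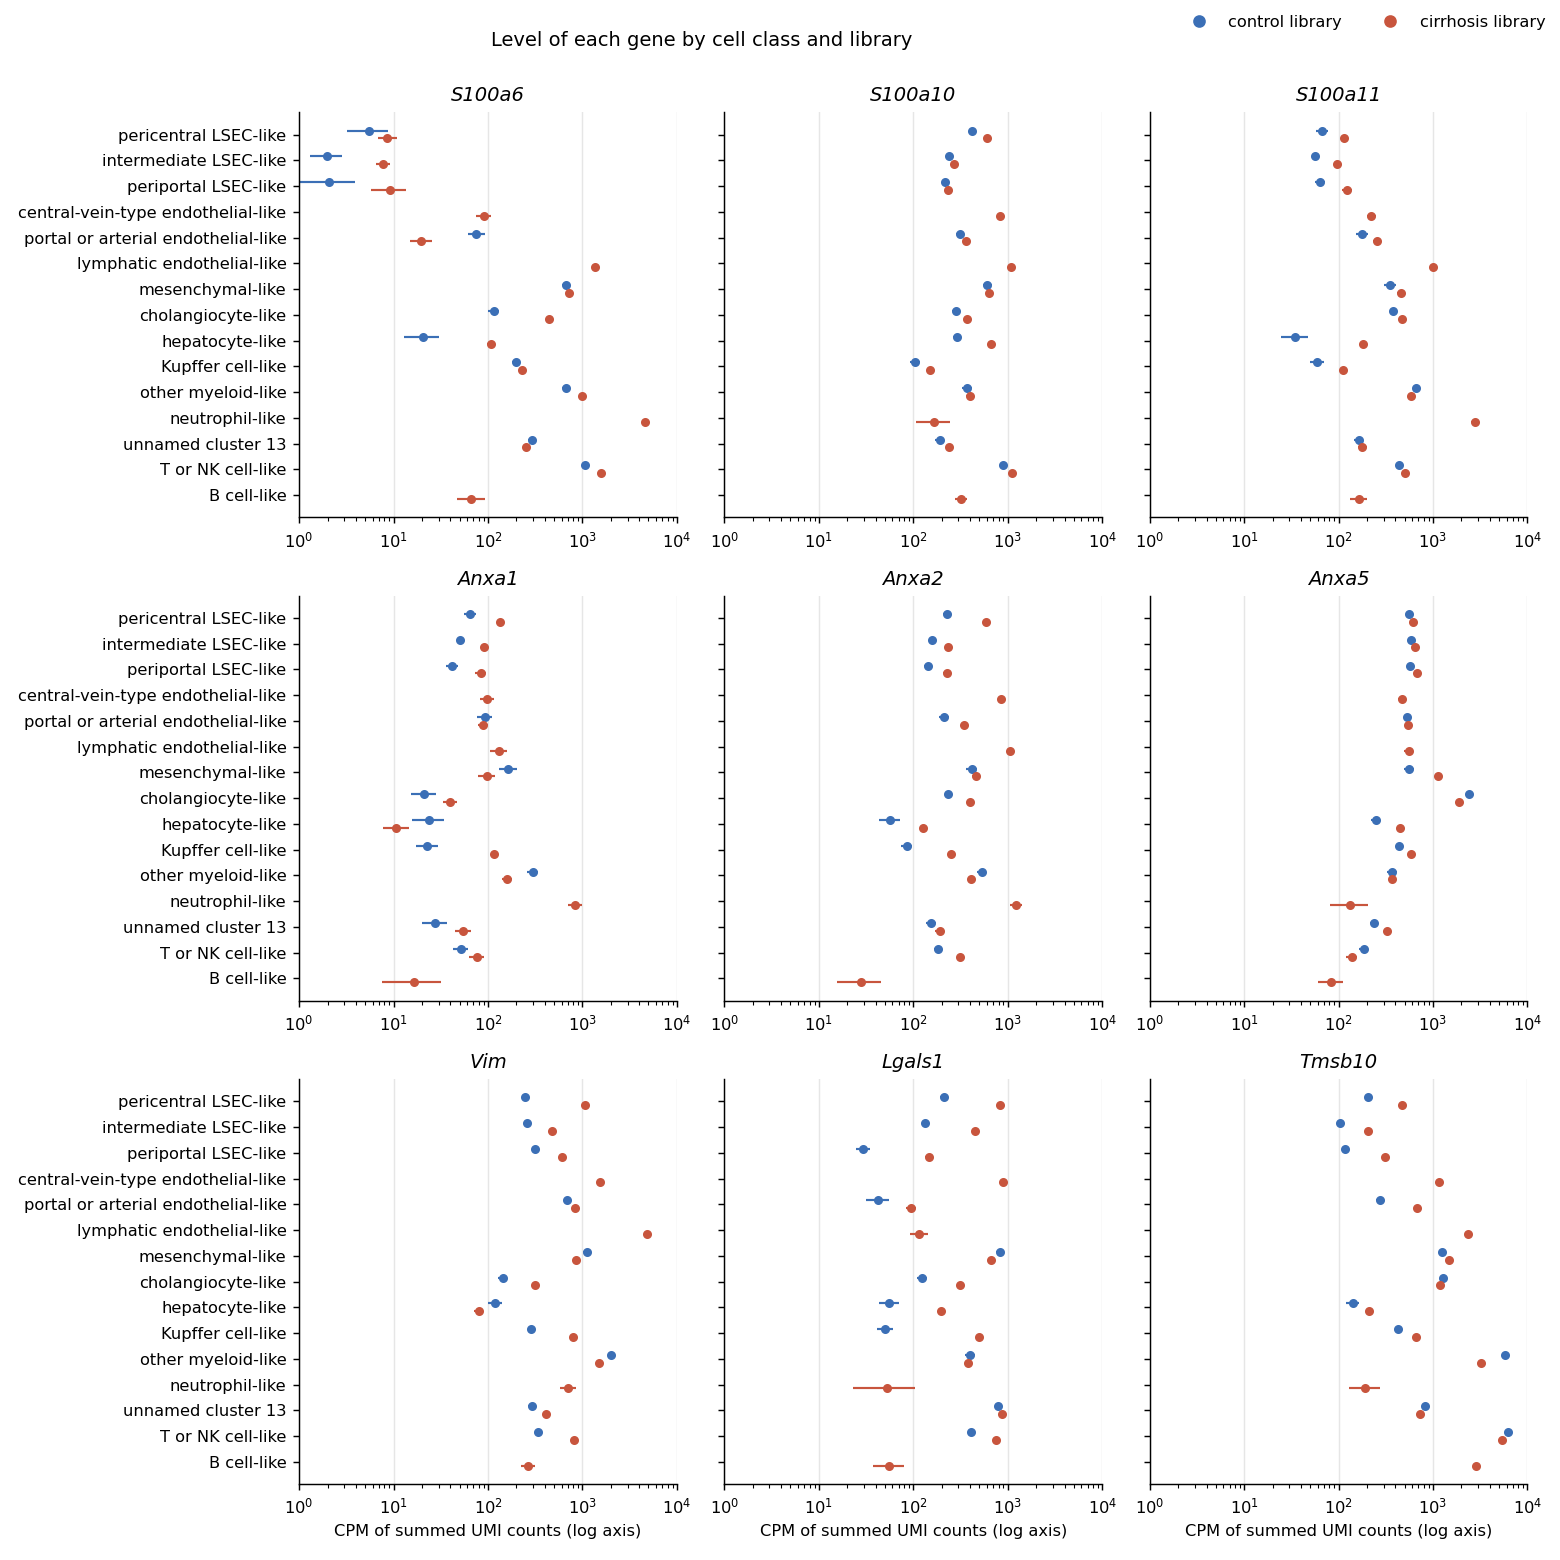
CPM of each gene (log axis) in each cell class with at least 50 cells in that library, with exact 95% Poisson intervals for counting error, control in blue and cirrhosis in red. S100a6 lies under 10 CPM in all 3 LSEC-like zones and at 1344 and 4584 CPM in lymphatic endothelial-like and neutrophil-like cells of the cirrhosis library, while Anxa5 stays between 466 and 672 CPM in the endothelial classes of that library.

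The LSEC-like cells of the cirrhosis library also held cluster 9 of the second clustering, with 438 cirrhosis and 23 control cells, led by Pi16, Thbd and Wnt9b. It was named pericentral from zone markers, and LSEC markers were not required for that name. First-step cluster 5, which scored best on endothelial and not LSEC markers, gave 443 of the cirrhosis LSEC-like cells. In pericentral LSEC-like cells the 12 LSEC markers summed to 24099 CPM in control and 10446 CPM in cirrhosis. Whether cluster 9 is made of LSECs was not tested. The cirrhosis cells of cluster 9 had 1262 CPM of Vim, 844 CPM of Lgals1, 722 CPM of Anxa2 and 558 CPM of Tmsb10. A cluster mostly of 1 library may be that library and not a type. Without it, 2525 cirrhosis and 2845 control LSEC-like cells remained. Vim was then 524 CPM in cirrhosis against 268 CPM in control, Lgals1 473 against 122, Tmsb10 232 against 120, Anxa1 95.9 against 50.03 and Anxa2 253 against 163. Lgals1 alone was past 2-fold, 1 of 8, where 1.31% of 6865 genes were in these cells, with Vim at a log2 ratio of 0.97, Tmsb10 at 0.95, Anxa1 at 0.94 and Anxa2 at 0.63.

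Within clusters the direction was nearly uniform. The clusters are parts of the same 2 pooled libraries and are not replicates. The share of all genes higher in every cluster was not computed, so the counts below are a description only. In the 9 LSEC-like clusters with at least 50 cells in each library, Lgals1, Tmsb10, Anxa1 and S100a11 were higher in the cirrhosis library in 9 of 9, with every interval above 0. Vim and Anxa2 were higher in 9 of 9, with 8 intervals above 0 for each. Lgals1 ratios ran from log2 1.29 to 2.81, and Vim ratios from 0.16 to 1.60. S100a10 was higher in 8 of 9 and Anxa5 in 7 of 9, with medians of 0.21 and 0.17. S100a6, below the minimum in LSEC-like cells, was higher in 9 of 9 at few UMIs, with 6 intervals above 0. The highest Vim ratio was in cluster 4, the pericentral cluster shared by both libraries, and the lowest in cluster 12, a periportal one.

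**Figure D2:**
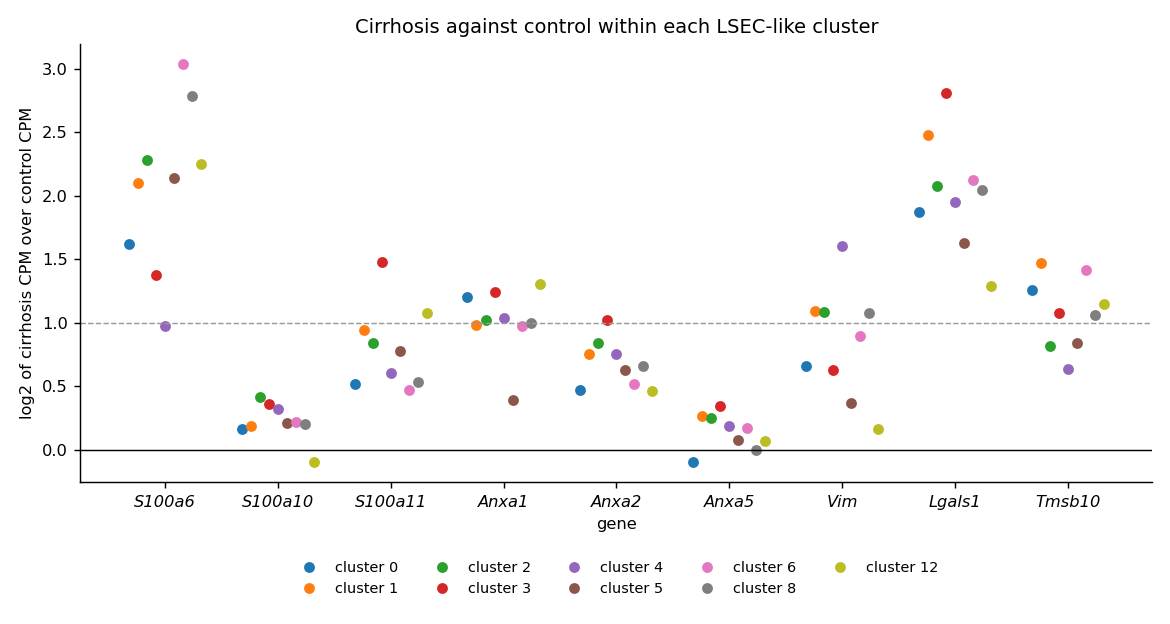
Log2 ratio of cirrhosis over control CPM of each gene (y axis) in each of the 9 LSEC-like clusters with at least 50 cells per library, 1 point per cluster, with the dashed line at 2-fold. Lgals1 points run from 1.29 to 2.81 and Anxa5 points from -0.10 to 0.34.

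Other cell types' transcripts moved with the library too. In LSEC-like cells the 10 Kupffer markers summed to 94.6 CPM in control and 262 CPM in cirrhosis, the 12 hepatocyte markers to 277 and 477 CPM, and the 10 mesenchymal markers to 129 and 43.9 CPM. The 6 mesothelial markers summed to 2.68 and 6.79 CPM, with Msln, Upk1b, Wt1 and Muc16 at 0 in cirrhosis. Their part in the member values was not tested. The 2 large control LSEC-like first-step clusters differed in immediate-early share, with medians of 2.10% in cluster 1 and 0.331% in cluster 3. Vim was 268 and 273 CPM in them, Lgals1 123 and 123 CPM, Anxa2 164 and 167 CPM and Tmsb10 130 and 90.5 CPM.

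The comparison of zones asked where along the lobule the members were high. The zones came from clustering without the members and their families. In control, Lgals1 was the most zonated member, at 209 CPM in pericentral, 132 CPM in intermediate and 29.4 CPM in periportal LSEC-like cells. S100a10 was 418, 238 and 216 CPM, Anxa2 was 225, 158 and 142 CPM and Tmsb10 was 204, 104 and 117 CPM in the same order. All 4 were highest on the pericentral side. Vim was the other way, at 245, 260 and 315 CPM.

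In cirrhosis, Vim was 1058, 474 and 611 CPM in pericentral, intermediate and periportal LSEC-like cells, so its highest zone was now pericentral. The pericentral over periportal ratio of Vim was 0.778-fold in control and 1.73-fold in cirrhosis, and the log2 ratios differed by 1.15 (1.01 to 1.30). Without cluster 9 the cirrhosis ratio was 1.19-fold and the difference 0.65 (0.49 to 0.81). The switch of the highest zone was thus present with and without that cluster.

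Anxa2 had 589, 234 and 226 CPM in the 3 zones of the cirrhosis library. Its pericentral over periportal ratio was 1.59-fold in control and 2.60-fold in cirrhosis, a difference of 0.71 (0.51 to 0.91) on the log2 scale. Without cluster 9 the ratios were 1.56-fold and 1.65-fold, and the difference was 0.08 (-0.13 to 0.29). The interval of the Anxa2 difference thus reached 0 without that cluster.

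Lgals1 was 836, 454 and 146 CPM in the 3 zones in cirrhosis. Its pericentral over periportal ratio was 7.13-fold in control and 5.74-fold in cirrhosis, a difference of -0.31 (-0.62 to -0.00) on the log2 scale. Tmsb10 was 466, 205 and 312 CPM, with ratios of 1.74-fold and 1.49-fold. Without cluster 9 the Tmsb10 ratio in cirrhosis was 1.01-fold and its difference between libraries was -0.77 (-0.99 to -0.56). S100a10 had ratios of 1.94-fold and 2.54-fold, a difference of 0.39 (0.22 to 0.56), which was 0.20 (0.01 to 0.38) without cluster 9. The pericentral over periportal ratio of S100a11 was 1.06-fold in control and 0.925-fold in cirrhosis, with intervals that reached 0 on the log2 scale. Without cluster 9 it was 0.795-fold in cirrhosis, and the difference was -0.35 (-0.70 to -0.01). Anxa5 had 0.962-fold and 0.923-fold.

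**Figure D3:**
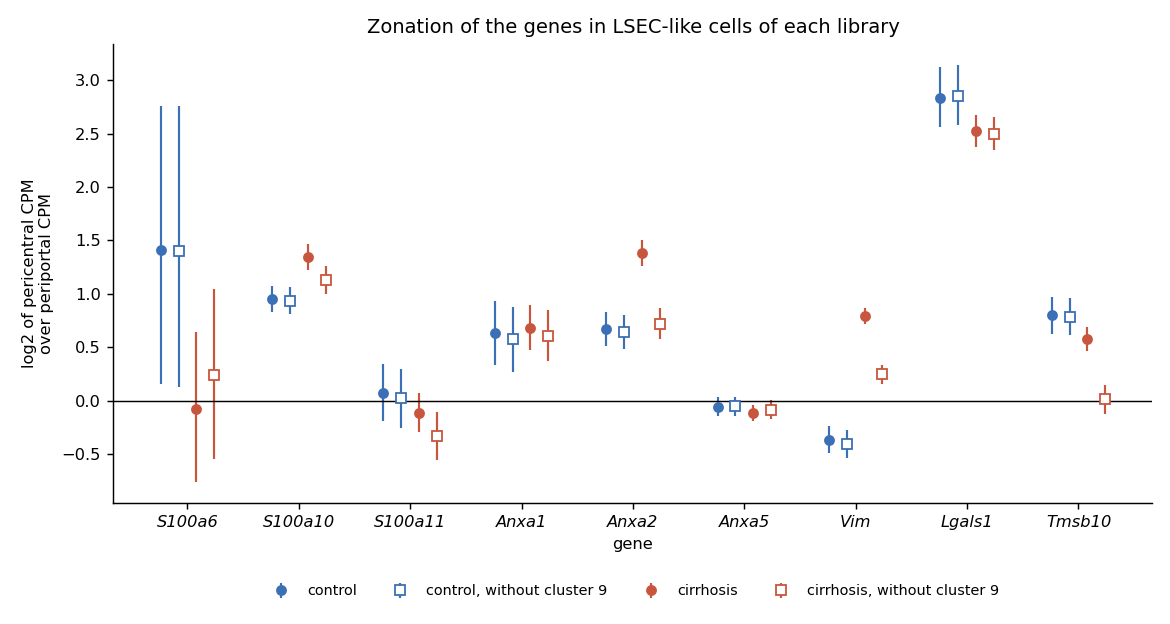
Log2 ratio of pericentral over periportal CPM (y axis) of each gene in LSEC-like cells of the control (blue) and cirrhosis (red) libraries, with 95% intervals for counting error, filled points for all pericentral cells and open squares without cluster 9. Vim lies below 0 in control and above 0 in cirrhosis, and Lgals1 lies highest in both.

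Set against control zone by zone, the pericentral cells had the largest Vim ratio. In pericentral LSEC-like cells 5 of 8 members were at least 2-fold higher in cirrhosis, where 3.1% of 6930 genes were. These were Vim at a log2 ratio of 2.11 (2.002 to 2.217), Lgals1 at 1.999 (1.88 to 2.12), Anxa2 at 1.39 (1.27 to 1.504), Tmsb10 at 1.19 (1.07 to 1.31) and Anxa1 at 1.05 (0.84 to 1.28). In cluster 4 alone, with 323 cirrhosis and 353 control cells, Vim was 725 against 238 CPM, Lgals1 822 against 212, Anxa1 128 against 62.4, Anxa2 373 against 221 and Tmsb10 315 against 203. There 3 of 8 members were past 2-fold, where 1.65% of 6914 genes were.

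In periportal LSEC-like cells 3 of 8 members were at least 2-fold higher, where 1.64% of 6778 genes were. Lgals1 had a log2 ratio of 2.31 (2.02 to 2.61), Tmsb10 1.41 (1.25 to 1.57) and Anxa1 1.004 (0.71 to 1.30). Anxa1 was under 2-fold with thinned cells, at 0.84. Vim, at 315 and 611 CPM, stood at 0.95 (0.85 to 1.06). In intermediate LSEC-like cells, which carry LSEC markers without a zone, 1 of 8 was past 2-fold, where 1.31% of 6865 genes were. That was Lgals1, at 1.78 (1.71 to 1.85), with Tmsb10 at 0.97 (0.89 to 1.06) just under. The intermediate clusters differed in library, since cluster 2, led by immediate-early genes, held 528 control and 175 cirrhosis cells, and cluster 3, led partly by interferon-stimulated genes, held 90 and 609.

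**Figure D4:**
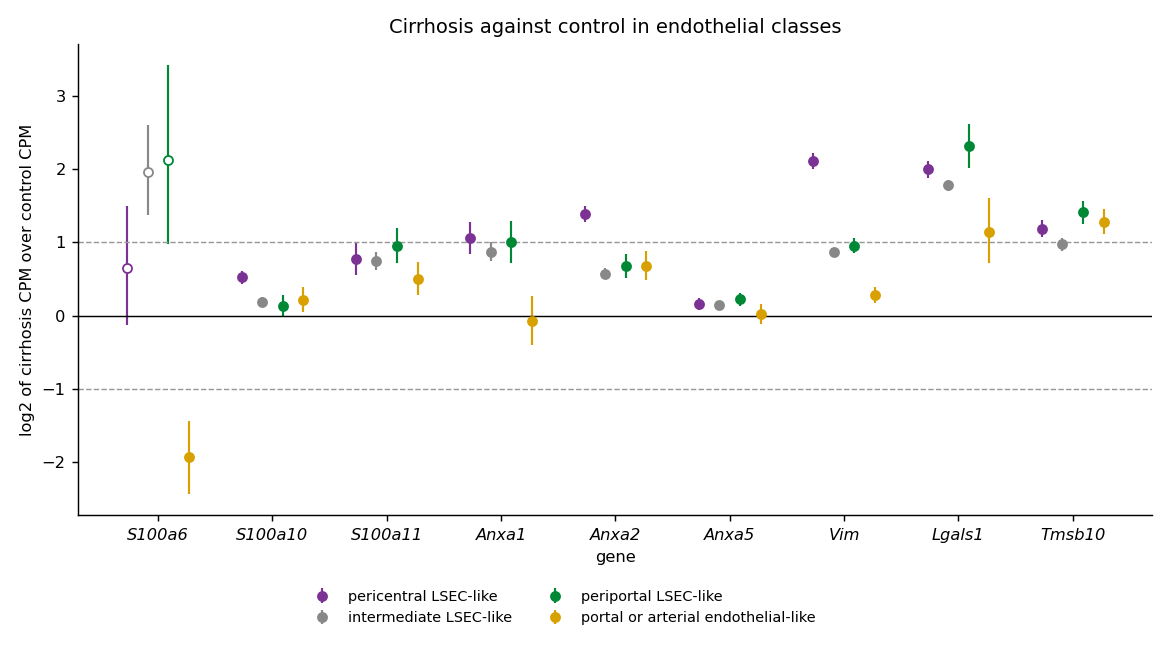
Log2 ratio of cirrhosis over control CPM (y axis) of each gene in 4 endothelial classes, with exact 95% intervals for counting error, open symbols where the mean was below 20 CPM, and dashed lines at 2-fold. Vim and Anxa2 have their largest ratios in pericentral cells, and the low S100a6 point of portal or arterial cells rests on 1 control cell.

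In portal or arterial endothelial-like cells, with 131 control and 272 cirrhosis cells, Tmsb10 and Lgals1 were past 2-fold. Tmsb10 was 275 CPM in control and 669 CPM in cirrhosis, a log2 ratio of 1.28 (1.11 to 1.45). Lgals1 was 42.5 and 94.1 CPM, a log2 ratio of 1.15 (0.71 to 1.60). With S100a6, 3 of 9 members were past 2-fold in either direction, where 3.9% of 6917 genes were. S100a6 reached the minimum level only through a single control cell, described next, so the count of 3 partly rests on that cell.

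S100a6 in these portal or arterial cells was 75.3 CPM in control and 19.7 CPM in cirrhosis, a log2 ratio of -1.94 (-2.44 to -1.44). Its 92 control UMIs came from 4 cells, and 88 of them from 1 cell. With the cell richest in S100a6 left out of each library, it was 3.32 and 17.3 CPM, a log2 ratio of 2.38 (0.93 to 4.31), at 4 and 50 UMIs. Both levels lay below the minimum of 20 CPM, so S100a6 would then not be tested. The lower S100a6 level in cirrhosis was therefore set by a single cell. With the cell richest in Vim left out of each library, Vim was 549 and 824 CPM, a log2 ratio of 0.59 (0.46 to 0.71), where with all cells it was 683 and 830 CPM and 0.28 (0.17 to 0.40).

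Classes with under 50 cells in control are given as levels only. The 88 central-vein-type endothelial-like cells of the cirrhosis library had 1548 CPM of Vim, 892 CPM of Lgals1, 853 CPM of Anxa2 and 1149 CPM of Tmsb10. In the 38 control cells of that type these were 701, 240, 493 and 611 CPM. The 65 lymphatic endothelial-like cells of the cirrhosis library stood apart from the other endothelial classes. They had 4815 CPM of Vim, 1344 CPM of S100a6, 1007 CPM of S100a11 and 1085 CPM of S100a10, while Lgals1 was 115 CPM. All 65 had an S100a6 UMI before thinning and 93.7% after it, against 6.01% and 1.61% of LSEC-like cells of that library.

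Outside the endothelium, each member had its own order of cell types. Within the control library T or NK cell-like cells ranked first of the 11 classes for S100a6 (1057 CPM), S100a10 (896 CPM) and Tmsb10 (6225 CPM). Other myeloid-like cells ranked first for S100a11 (668 CPM), Anxa1 (297 CPM), Anxa2 (532 CPM) and Vim (1998 CPM), cholangiocyte-like cells for Anxa5 (2407 CPM) and mesenchymal-like cells for Lgals1 (834 CPM). Mesenchymal-like cells and an unnamed cluster of immune cells (first-step cluster 13), second at 783 CPM, were not separated for Lgals1. In cirrhosis, 53 neutrophil-like cells ranked first of 15 classes for S100a6 (4584 CPM), S100a11 (2757 CPM), Anxa1 (838 CPM) and Anxa2 (1214 CPM). The last was not separated from lymphatic cells at 1065 CPM. Of the 127 Anxa1 UMIs of these cells, 51 came from a single cell. The 25 control neutrophil-like cells were too few to be ranked. They held 460 S100a6, 342 S100a11, 87 Anxa1 and 114 Anxa2 UMIs among 102971. For these genes a change of first class between libraries therefore cannot be read from the ranks. In control, neighbouring classes were not separated in 5 of 10 steps for Anxa1, Anxa2, Anxa5, Vim, Lgals1 and S100a11. Classes were not separated when the 95% interval of the ratio of their levels reached 1.

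Kupffer cell-like cells had 4 of 9 members at least 2-fold higher in cirrhosis, where 3.27% of 6232 genes were. Lgals1 was 50.3 CPM in control and 496 CPM in cirrhosis, a log2 ratio of 3.30 (3.04 to 3.58). Anxa1 was 22.8 and 115 CPM, Anxa2 85.0 and 254 CPM and Vim 289 and 788 CPM, with log2 ratios of 2.33, 1.58 and 1.45. The Lgals1 ratio was 1.87 with members and families in the clustering and 6.56 with doublets kept. With members and families in the clustering the other 3 were under 2-fold, at 0.64 for Anxa1, 0.70 for Anxa2 and 0.68 for Vim, and Anxa2 was also under it with a stricter cell filter, at 0.97. In the same cells the summed LSEC markers were 5354 CPM in control and 2257 CPM in cirrhosis, and the other myeloid markers 5921 and 10414 CPM. Their part in the member values was not tested.

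Cholangiocyte-like cells, the bile duct epithelium, had 3 of 9 members at least 2-fold higher, where 1.75% of 7656 genes were. S100a6 was 115 CPM in control and 444 CPM in cirrhosis, a log2 ratio of 1.95 (1.75 to 2.15). Lgals1 was 123 and 313 CPM, and Vim 142 and 312 CPM, with log2 ratios of 1.34 and 1.13. Lgals1 was under 2-fold with a stricter cell filter, at 0.91, and Vim with members and families in the clustering, at 0.75, and with thinned cells, at 0.87. In this class the 10 Kupffer markers summed to 466 CPM in control and 946 CPM in cirrhosis, the 10 mesenchymal markers to 281 and 530 CPM and the 8 neutrophil markers to 200 and 683 CPM, with Ly6g, Ngp and Camp at 0 in both. Their part in the member values was not tested. Anxa5 was lower, at 2407 and 1873 CPM, with a log2 ratio of -0.36 (-0.42 to -0.31).

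Hepatocyte-like cells had 5 of 8 members at least 2-fold higher, where 4.82% of 5106 genes were. S100a6 was 20.3 and 108 CPM, S100a11 34.6 and 180 CPM and Lgals1 55.7 and 196 CPM in control and cirrhosis. S100a10 was 290 and 657 CPM, and Anxa2 56.6 and 128 CPM. S100a10 was under 2-fold as a mean over single cells, at a log2 ratio of 0.98, and in cells of low immediate-early share, at 0.88. Anxa2 was under it with doublets kept, at 0.49, and with thinned cells, at 0.89. Most control cells of this class came from first-step cluster 8 and most cirrhosis cells from cluster 2, so the libraries hold different clusters here. Of the 24 control UMIs of S100a6, 16 came from 1 cell. The LSEC markers in this class summed to 6981 CPM in control and 1029 CPM in cirrhosis, the 8 cholangiocyte markers to 96.2 and 784 CPM and the 8 neutrophil markers to 11.8 and 575 CPM, with Ly6g, Ngp and Camp at 0 in both. Their part in the member values was not tested.

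In the remaining classes 0 or 1 of 9 members was past 2-fold, too few to set apart from the share of all genes. Over all genes these classes did not all differ less. In mesenchymal-like cells 15.4% of genes were past 2-fold in either direction, against 3.5% in LSEC-like cells. Mesenchymal-like cells had 1 of 9 members at least 2-fold higher, Anxa5 at 558 and 1136 CPM, where 7.48% of 7409 genes were. Its log2 ratio of 1.03 was 0.34 with doublets kept and 0.13 with members and families in the clustering. The hepatocyte markers in this class summed to 718 CPM in control and 4106 CPM in cirrhosis, the cholangiocyte markers to 142 and 1836 CPM, the mesothelial markers to 1057 and 221 CPM and the LSEC markers to 10646 and 4540 CPM. Their part in the member values was not tested. T or NK cell-like cells had 1 of 9, Vim at 340 and 807 CPM, where 1.3% of 6395 genes were, and it was at 0.97 in cells of low immediate-early share, against 1.25 in all. Other myeloid-like cells had 0 of 9 past 2-fold in either direction, where 6.53% of 6080 genes were, and Tmsb10 was 5755 CPM in control and 3187 CPM in cirrhosis. First-step cluster 13, left unnamed because immunoglobulin genes such as Iglc1 and Jchain led it beside Siglech and Ccr9, had 0 of 9, where 5.12% of 6510 genes were. Its 8 B cell markers summed to 10454 CPM in control and 3759 CPM in cirrhosis, and their part in its member values was not tested.

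The genes related to the members were followed in LSEC-like cells over lists, where 3.5% of 6886 genes were past 2-fold in either direction. Of 13 other S100 genes only S100a1, S100a13 and S100a16 reached 20 CPM, and none was past 2-fold, with a list median of 0.14. S100a1 was 201 and 245 CPM, a log2 ratio of 0.29 (0.23 to 0.34). Of 8 other annexins in the tables, Anxa3, Anxa7 and Anxa11 reached it, and none was past 2-fold, with a median of 0.37.

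Of 8 tested partners of S100 proteins and annexins, 1 was at least 2-fold higher. It was Ahnak, a giant scaffold that binds the Anxa2 and S100a10 complex, at 64.5 and 222 CPM, a log2 ratio of 1.78 (1.70 to 1.86). Of 13 genes on a list of intermediate filaments and their linkers besides Vim, 3 reached a mean of 20 CPM, and these 3 were past 2-fold. The cytolinker Plec was 43.8 and 180 CPM, a log2 ratio of 2.04 (1.94 to 2.14), nestin (Nes) 22.1 and 66.1 CPM and lamin A (Lmna) 12.7 and 33.0 CPM. Lmna reached the minimum only through its cirrhosis level, so its call was partly set by the filter. Of 3 tested galectin genes, none was past 2-fold. Lgals9, the closest, was 139 and 278 CPM, a log2 ratio of 0.997 (0.94 to 1.06), just short of 2-fold.

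Of 21 tested genes on a list of actin, myosin light chain, actin-binding and thymosin genes that also holds Ccn1 and Ccn2, 2 were at least 2-fold higher and 2 at least 2-fold lower. Tpm4, a tropomyosin, was 201 and 434 CPM and Flna, the actin cross-linker filamin A, was 38.0 and 80.5 CPM. The 2 lower genes were Ccn1, at 71.3 and 11.6 CPM, and Ccn2, at 138 and 55.1 CPM, which encode secreted matricellular proteins and not actin regulators. Of the 17 immediate-early genes 13 were at least 2-fold lower, with a median of -2.21, such as Fos at 2197 and 211 CPM. Of 11 tested interferon-stimulated genes 5 were at least 2-fold higher, with a median of 0.89, and of 8 heat shock genes none was past 2-fold.

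Across 26 points, each a class in 1 library with at least 50 cells, the members were compared by Pearson r of log2(CPM + 10). This is a description only, since points of 1 library share their depth and background. S100a6 and S100a11 were most alike at r = 0.84, followed by Anxa1 and Anxa2 at 0.80 and Anxa2 and Vim at 0.75. Anxa5 was unlike the rest, at -0.26 with S100a6, -0.19 with Tmsb10 and at most 0.25, with Anxa2. Weak pairs also occurred among the others, with S100a10 at 0.08 with Anxa1 and 0.38 with its partner Anxa2. Among the 3721 other genes compared, Actg1, gamma-actin, was the most like the summed members, at 0.86, and Lrrfip1 was also among the most like, at 0.79. Vim was most like Ahnak (0.77), Anxa2 most like Myl6 (0.82), S100a11 most like Myl12b (0.82), Anxa1 most like Ostf1 (0.80) and Anxa5 most like Ptov1 (0.93). S100a6 was most like Hmgn2 (0.86), S100a10 most like Rwdd1 (0.85), Lgals1 most like Jpt1 (0.77) and Tmsb10 most like Rpl18 (0.89).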

How the data were processed

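The authors deposited whole-number UMI counts, 1 table per library with genes by barcodes, made with Cell Ranger on mm10 per the submitters' processing notes. Sources used here name neither its version nor the annotation, nor how reads shared with pseudogenes were counted. Barcodes needed at least 500 UMIs, 300 genes, under 20% mitochondrial and at most 5% erythroid counts, and the highest-scoring doublets were removed (4.14% of control, 6.14% of cirrhosis barcodes). Cells were clustered with scanpy 1.11.5 and leidenalg 0.10.2 at resolution 0.5, and endothelial cells with at most 0.5% of counts of another type again at 1.5, without the members and their families. Clusters were named from marker lists as X-like. First-step cluster 13 scored on plasmacytoid dendritic cell markers but was led by immunoglobulin genes, so it is given by number. Clusters with at least 6 of 10 leading genes 5-fold higher in another cell type stayed unnamed, which with other limits left 11.4% of control and 12.3% of cirrhosis barcodes without a class.

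UMI counts were summed per class and library as CPM. The log2 ratio has an exact conditional 95% interval, levels have Poisson and shares Clopper-Pearson intervals, all for counting error only. With 1 library per group no test was made, and a gene counted as called past 2-fold at a mean of 20 CPM with counts in both libraries and 50 cells per class. The ratio was tested on simulated data. Members, gene lists and named-gene rules were chosen with earlier results of these data known, and the second resolution and naming limits after seeing the data. Named genes were all 9 members, up to 4 members of each other list with the largest ratio in LSEC-like cells, and the most similar genes. One of the most similar genes is not reported here.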

Additional observations from a re-analysis of the deposited data

Results flagged for a closer look

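The following values went the opposite way from LSEC-like cells, in which each gene was higher in cirrhosis, with an interval that did not reach 0. The differences between classes were not tested, and each rests on 1 library per group. Values are log2 ratios of cirrhosis over control. In mesenchymal-like cells Anxa1 was at -0.76, Vim at -0.36 and Lgals1 at -0.32, and over alternative settings these ran from -1.59 to 1.15, from -0.65 to 1.38 and from -0.35 to 2.12, with the positive values found with doublets kept. In cholangiocyte-like cells Anxa5 was at -0.36 and Tmsb10 at -0.072, and in hepatocyte-like cells Vim was at -0.58. The cholangiocyte-like Tmsb10 ratio was positive with doublets kept (0.01) and with members and families in the clustering (0.05), and the hepatocyte-like Vim ratio in cells of low immediate-early share (0.52). In other myeloid-like cells S100a11 was at -0.19, Anxa1 at -0.89, Anxa2 at -0.37, Vim at -0.40 and Tmsb10 at -0.85. Tmsb10 was at -0.19 in the unnamed first-step cluster 13 and at -0.20 in T or NK cell-like cells, where Anxa5 was at -0.42. That Anxa5 ratio was positive with the first clustering at resolution 1 (1.03), with doublets kept (0.76) and in cells of low immediate-early share (0.11). Portal or arterial S100a6, the lowest of all ratios at -1.94, is described with its single control cell above.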

How the results depend on the processing

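No paired analysis was possible because each group is 1 pooled library and the labels carry no replicate numbers. In LSEC-like cells each of the 8 members compared kept its direction over 16 settings, with log2 ratios of 1.95 to 2.28 for Lgals1, 0.97 to 1.38 for Vim, 0.95 to 1.46 for Tmsb10, 0.63 to 1.12 for Anxa2, 0.94 to 1.202 for Anxa1, 0.61 to 0.84 for S100a11, 0.23 to 0.55 for S100a10 and 0.13 to 0.18 for Anxa5. The cause of the changes in counts below was not tested. The share of all genes is given only at 1.5-fold and, above, for clusters with under 10% of either library left out. The counts at the other settings are therefore a description only. The 5 LSEC-like members past 2-fold became 3 with doublets kept. The 5 pericentral ones became 2 with doublets kept, and 3 with the first clustering at resolution 1, with cells over 0.2% of another type left out or, an alternative chosen after seeing the data, with the second clustering at resolution 1. Leaving out clusters with under 10% of either library, also chosen after seeing the data, gave 1 in LSEC-like and 3 in pericentral cells. The single intermediate member became 2 with median-of-ratios scaling, a stricter cell filter, doublets kept or thinned cells, and 3 with cells of low immediate-early share. It became 5 at 1.5-fold, where 8.97% of 6865 genes were past that cutoff in either direction. The 3 periportal members became 6 at 1.5-fold, where 10.1% of 6778 genes were past it in either direction. They became 2 with doublets kept, thinned cells or the second clustering at resolution 1 or 2, where Anxa1 was under 2-fold. The 14 calls in 7 other classes became 26 at 1.5-fold, 27 with doublets kept, 5 over the 4 classes left by a stricter filter and 4 over the 5 classes left with members and families in the clustering. At 1.5-fold in either direction, the share of all genes in these classes ran from 9.77% in cholangiocyte-like to 46.4% in hepatocyte-like cells. S100a6 in portal or arterial cells, at -1.94, reversed to 3.31 with cells over 0.2% of another type left out and to 2.38 without its richest cell, the latter chosen after seeing the data. Without that cell both levels of S100a6 were below the minimum CPM, so the value of 2.38 is a description only. Without a minimum CPM, genes at least 2-fold higher and lower in LSEC-like cells were counted among those with counts in both libraries. They were 3 and 0 of 8 other S100 genes, 0 and 1 of 6 other annexins and 3 and 1 of 14 partners. They were 7 and 1 of 13 on the intermediate filament list and 1 and 2 of 6 galectins. On the actin list that also holds Ccn1 and Ccn2 they were 5 and 2 of 27, and 9 and 0 of 15 interferon-stimulated genes. The share of all genes without a minimum was not computed, so these counts are a description only. Some settings left under 50 cells in a class and gave no value there: the immediate-early split gave values in 7 of the 12 classes. S100a6 in LSEC-like cells, with 54 control UMIs, was below the minimum CPM and was not followed over the settings.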

Other observations

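The 5 second-step clusters without a name were not used in the comparisons, and levels of members in them are given here. Cluster 7, led by hepatocyte genes such as Fabp1 and Apoa2, had 250 control and 240 cirrhosis cells, with Vim at 265 and 568 CPM and Lgals1 at 104 and 515 CPM. Cluster 11, led by macrophage genes such as Cd74 and Lyz2, had 109 and 165 cells, with Vim at 238 and 551 CPM and Lgals1 at 96.3 and 490 CPM. The values of these 2 clusters lay within the range of the named LSEC-like clusters of the same library. Cluster 15, led by Igfbp3, Sparcl1, Cd34 and Col15a1, held 65 cirrhosis and 3 control cells. Its cirrhosis cells had 893 CPM of Vim, 723 CPM of Tmsb10, 417 CPM of Lgals1 and 47.6 CPM of S100a6. Cluster 13, with Iglc1, Spp1 and ribosomal protein genes among its leading genes, held 71 control and 57 cirrhosis cells, with Vim at 306 and 872 CPM, Lgals1 at 171 and 803 CPM and Tmsb10 at 306 and 618 CPM. Cluster 17, led by Dcn and Colec11, held 25 control and 6 cirrhosis cells, and its control cells had 234 CPM of Vim and 115 CPM of Lgals1.

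In the 47 control B cell-like cells 1 cell held 235 of 295 Vim UMIs and 1 cell held 189 of 278 S100a10 UMIs, so the class's control levels of these genes are those of a single cell.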
